A study of Mus musculus with 20 samples.

Results

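The transcripts of the transcription factor p53 (Trp53) and of 9 genes grouped with it as targets were followed in the mouse kidney after ischemia-reperfusion injury (IRI), ischemic pre-conditioning (IPC) and Hemin treatment. The members were chosen by gene name on the array, and all 10 were found among 27827 gene names: Trp53, Mdm2, Cdkn1a, Ccng1, Bax, Bbc3, Pmaip1, Gadd45a, Gadd45b and Sesn2. Total kidney RNA of male C57BL/6 mice aged 8 to 12 weeks was labelled with 1 dye, Cy3, and hybridised to whole mouse genome oligonucleotide arrays, with 4 arrays in each of 5 groups. Control mice had neither surgery nor treatment. IRI mice had both renal pedicles clamped for 45 min and were killed 6 h after reperfusion. IRI+Hemin mice were given Hemin, an inducer of heme oxygenase 1, at 25 mg/kg 24 h before the same operation, and Hemin mice received the drug without surgery. IPC+IRI mice went through 15 min of ischemia 7 days before IRI. No group had a sham operation, so anesthesia and incision cannot be told apart from ischemia and reperfusion.

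p53 is held at a low level in unstressed cells by Mdm2, a ubiquitin ligase that marks it for degradation, and DNA damage, hypoxia or oxidant stress stabilise the protein. It then binds response elements near its target genes, which arrest the cell cycle, start apoptosis through the BCL2 family, assist DNA repair or restrain growth. Much of this control acts on the protein, so the Trp53 transcript need not follow the activity of p53. Several of the members, among them Cdkn1a, Gadd45a, Gadd45b and Sesn2, are known to respond to stress signals that do not pass through p53, and in the kidney p53 is best known for its part in tubular cell injury after ischemia.

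Log2 expression is the log2 of the processed signal over the 75th percentile of its array, so that a value of 0 lies at this percentile, and a change is given as rise or fall where the adjusted p of the limma fit over all genes was below 0.05. The 75th percentile lay between 147 and 358 signal units over the 20 arrays, and between 57.4% and 67.4% of the gene names of an array were well above background, a flag of the scanner software. Pearson correlations between arrays of 1 group ranged from 0.975 to 0.9949 over 14527 genes. The 4 arrays of a group shared a slide that held no other group, so that effects of slide and of treatment cannot be told apart. Control and IRI were scanned on 1 day, IPC+IRI and Hemin together on another day and IRI+Hemin on a day of its own, so only IRI vs Control, among the comparisons below, was read within 1 scan day. Markers of kidney epithelium were well above background on all 20 arrays for 8 of 8 genes. All 8 arrays of Control and Hemin had lower sums of the leukocyte markers (1.07 to 2.31 in units of the 75th percentile, 8 genes) than those of IRI (3.73 to 9.08), IRI+Hemin (3.08 to 11.2) and IPC+IRI (6.90 to 21.0). In whole tissue, fewer cells of a type and less RNA per cell cannot be told apart, and the part of leukocytes in the results below was not tested.

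The members were read by 15 probes. Bbc3, Cdkn1a, Gadd45a, Bax and Pmaip1 had 1 probe and the others 2, and 4 probes were printed in 10 copies on every array (Cdkn1a, Bax and the first probe each of Mdm2 and Trp53). Every one of 1020 spot readings of the members was well above background and none was saturated, and 7 were removed as outliers among their copies. The copies of a probe on 1 array varied with a median coefficient of variation between 3.34% (Bax) and 6.68% (Trp53). Log2 expression of every member could therefore be compared among all groups, but not between members, because probes differ in their yield. With 4 arrays against 4, groups that do not overlap give an exact two-sided permutation p of 0.029, the smallest possible. How many of all genes show groups without overlap was not counted.

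After IRI, 7 of the 9 members other than Trp53 rose, Bax and Trp53 itself fell and Ccng1 gave no detectable change. In IRI vs Control, 7 of the 10 members were higher and 2 were lower, against 17% higher and 33.7% lower among all 17711 genes tested, and 5 members were at least 2-fold higher, against 5.97% of all genes. The median log2 difference of the members was 1.08 and that of all genes was -0.17. In IPC+IRI vs Control, 8 members were higher and 1 was lower (all genes 23.1% higher and 32.6% lower), and 6 were at least 2-fold higher (all genes 7.96%). In IRI+Hemin vs Hemin, which shares no array with IRI vs Control, 7 members were higher and none lower (all genes 16.4% higher and 27.8% lower), and 3 were at least 2-fold higher (all genes 5.78%). In Hemin vs Control 2 members were higher (Bax and Gadd45b) and 2 lower (Trp53 and Ccng1), against 18.4% and 17.5% of all genes, which is near the background for 10 genes.

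**Figure D1:**
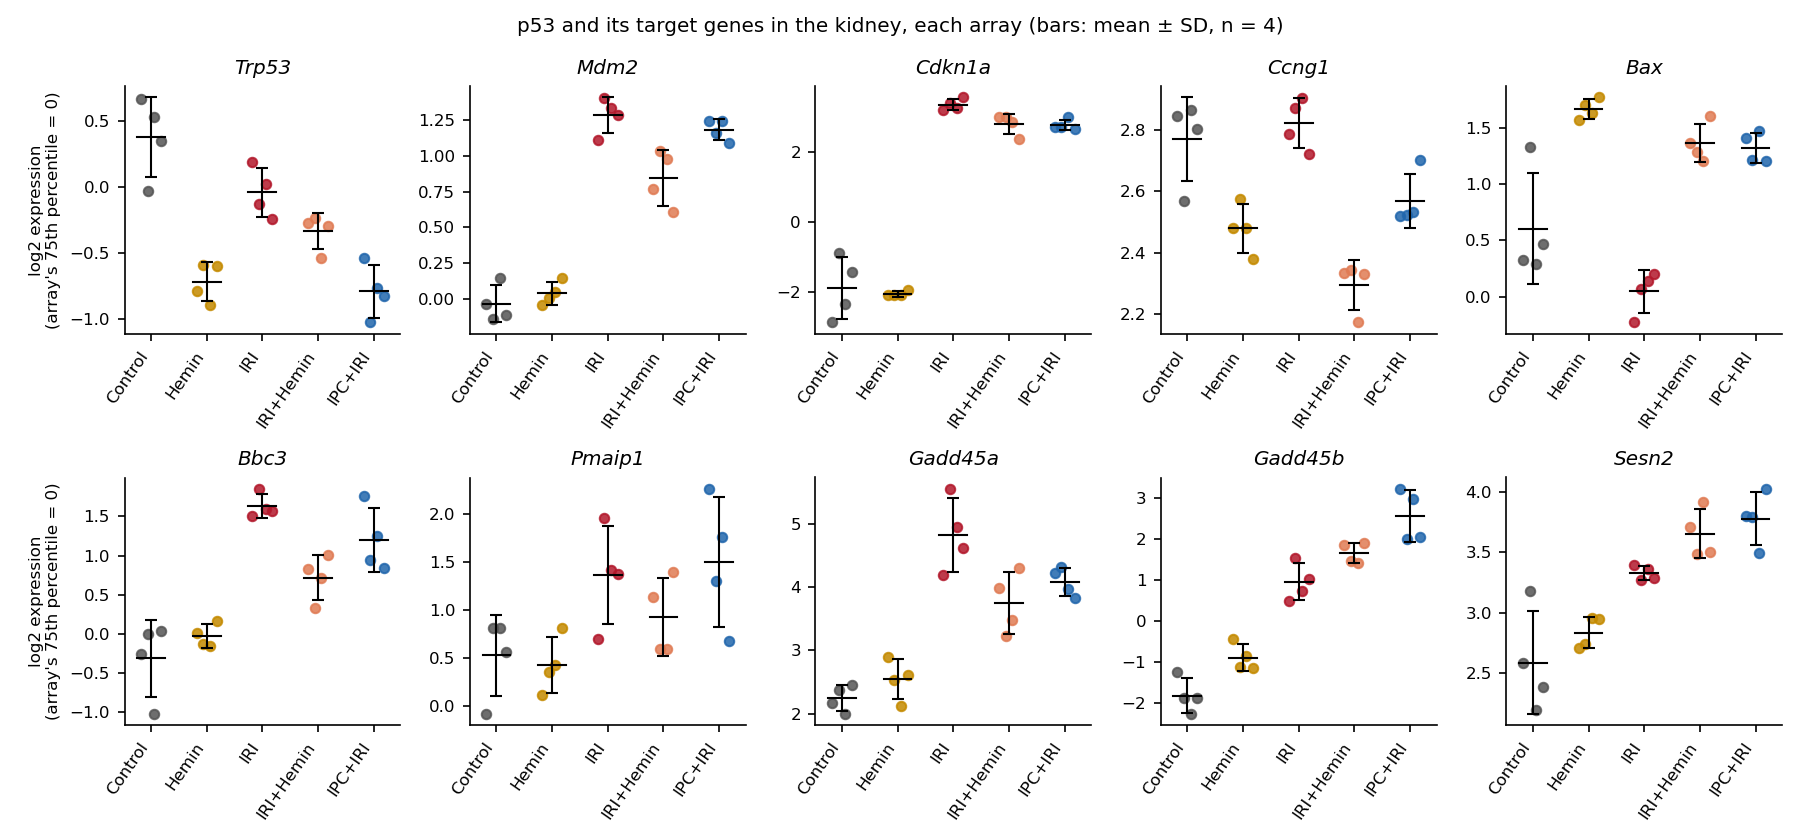
Log2 expression of the 10 members in each array (y axis, the array's 75th percentile is 0, scale set for each gene) by group (x axis), with 4 arrays a group as points and the mean ± SD as bars. The 12 arrays after ischemia lie above the 8 without it for Cdkn1a, Mdm2, Bbc3, Gadd45a, Gadd45b and Sesn2, while Trp53 and Bax follow other patterns. The share of all genes separated in this way was not counted.

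Cdkn1a encodes the cyclin-dependent kinase inhibitor p21, the main effector of the arrest that p53 imposes. Its log2 expression was -2.86, -0.89, -2.32 and -1.43 in the Control arrays and -2.09, -2.08, -2.07 and -1.92 in the Hemin arrays. It was 3.17, 3.38, 3.25 and 3.55 in IRI, 2.98, 2.97, 2.83 and 2.37 in IRI+Hemin and 2.71, 2.71, 2.98 and 2.63 in IPC+IRI. The groups with and without ischemia were far apart, and within the latter the Control arrays spread widely (SD 0.88) while the Hemin arrays lay close together (SD 0.08). Cdkn1a rose 37.1-fold in IRI vs Control (log2 difference 5.21 ± 0.29 SE, adjusted p = 6.79e-10), where it ranked 12 among 17711 genes by size of rise. The rise was 24.8-fold in IPC+IRI vs Control (4.63 ± 0.29, adjusted p = 3.68e-09) and 28.4-fold in IRI+Hemin vs Hemin (4.83 ± 0.29, adjusted p = 3.7e-09).

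Every IRI array exceeded every IRI+Hemin and IPC+IRI array in Cdkn1a, but these smaller differences did not pass the threshold. IRI+Hemin vs IRI gave -0.55 (95% interval -1.15 to 0.05, adjusted p = 0.127) and IPC+IRI vs IRI gave -0.58 (-1.18 to 0.02, adjusted p = 0.108). Both passed it when the fit held only the 8 arrays compared (adjusted p = 0.028 and 0.00834), and without Control replicate 2 (adjusted p = 0.0497 and 0.0394). IPC+IRI vs IRI also passed it without Control replicate 1 (adjusted p = 0.0412). The fit over all arrays takes in the wide spread of the Control group. Hemin alone gave no detectable change in Cdkn1a (-0.17, 95% interval -0.76 to 0.43, adjusted p = 0.682).

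Ccng1 encodes cyclin G1, a classical p53 target that recruits a phosphatase to Mdm2, and it behaved unlike Cdkn1a. Its log2 expression lay between 2.57 and 2.86 in Control and between 2.72 and 2.90 in IRI, and the arrays of these groups overlapped. IRI vs Control was 0.05 (95% interval -0.14 to 0.24, adjusted p = 0.657). Its dimmer probe gave 0.30 ± 0.13 (adjusted p = 0.0584) and its brighter probe -0.01 ± 0.09 (adjusted p = 0.938). The groups given Hemin were lower, with 2.38 to 2.57 in Hemin and 2.17 to 2.34 in IRI+Hemin. Ccng1 fell by 0.53 ± 0.09 in IRI+Hemin vs IRI (adjusted p = 0.000205), by 0.29 ± 0.09 in Hemin vs Control (adjusted p = 0.018) and by 0.25 ± 0.09 in IPC+IRI vs IRI (adjusted p = 0.0296). Without normalization between arrays the difference was -0.16 (adjusted p = 0.597) in IRI+Hemin vs IRI, 0.27 (adjusted p = 0.321) in Hemin vs Control and 0.06 (adjusted p = 0.855) in IPC+IRI vs IRI. Normexp background correction ended all 3 calls as well (-0.25, -0.24 and -0.06, with adjusted p = 0.125, 0.19 and 0.714), and the deposited log2 matrix ended those in Hemin vs Control (0.307) and IPC+IRI vs IRI (0.159). The call in IPC+IRI vs IRI was also lost with the replicate block (adjusted p = 0.0548), in a fit of only these 8 arrays (0.0855) and without IRI replicate 2 or 3 or IPC+IRI replicate 1, 2 or 3 (0.0626 to 0.0827). Leaving out Control replicate 1 or 3 or Hemin replicate 4 also ended the call in Hemin vs Control (adjusted p between 0.0521 and 0.0592).

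The promoter windows of RefSeq (build GRCm38.p6, 250 bases before to 50 after each transcription start) were searched on both strands for the p53 consensus decamer, and 9 members matched 12 windows, with Pmaip1 matching none. The decamer was present in 6 of the 12 windows (Trp53, Mdm2, Cdkn1a, Ccng1, Bax and Gadd45a), against 8.36% of 32851 windows of all genes. Only Cdkn1a, among the members, had a pair of decamers within 13 bases of each other, which 0.073% of all windows held. The windows of Cdkn1a, which rose most after IRI, of Ccng1, which did not change detectably, and of Gadd45b, which rose strongly, are shown for comparison, on the strand of the gene and with matches to the decamer in capitals.
Cdkn1a, chr17:29090729-29091028, plus strand: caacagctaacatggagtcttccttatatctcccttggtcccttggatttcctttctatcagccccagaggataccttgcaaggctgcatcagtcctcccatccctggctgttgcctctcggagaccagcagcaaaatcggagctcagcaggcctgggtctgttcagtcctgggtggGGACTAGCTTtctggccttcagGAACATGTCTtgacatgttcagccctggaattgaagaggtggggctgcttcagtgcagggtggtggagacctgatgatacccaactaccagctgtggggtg
Ccng1, chr11:40755237-40755536, minus strand: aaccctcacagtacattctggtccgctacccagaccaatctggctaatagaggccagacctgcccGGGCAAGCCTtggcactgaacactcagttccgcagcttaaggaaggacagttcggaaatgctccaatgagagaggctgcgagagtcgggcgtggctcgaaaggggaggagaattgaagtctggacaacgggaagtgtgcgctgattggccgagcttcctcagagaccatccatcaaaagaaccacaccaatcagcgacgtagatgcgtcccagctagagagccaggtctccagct
Gadd45b, chr10:80929841-80930140, plus strand: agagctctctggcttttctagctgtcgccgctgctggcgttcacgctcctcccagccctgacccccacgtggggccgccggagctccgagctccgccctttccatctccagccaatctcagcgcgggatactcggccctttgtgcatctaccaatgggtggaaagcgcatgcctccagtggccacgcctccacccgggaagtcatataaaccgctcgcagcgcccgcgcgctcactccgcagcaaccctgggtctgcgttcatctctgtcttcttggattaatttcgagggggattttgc
In the Cdkn1a window the matches GGACTAGCTT and GAACATGTCT began 73 and 51 bases before the start and were 12 bases apart. The Ccng1 window held GGGCAAGCCT, beginning 185 bases before the start, and that of Gadd45b held no match. The other Cdkn1a window, at a downstream start (chr17:29093519-29093818), held none either. Decamers with a mismatch to the consensus, such as any next to a marked one, were not marked. A match is a run of letters and not a measured binding site, and elements outside these windows, such as those in introns, were not searched.

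Trp53 was not up-regulated after IRI, and its level was lowest in the Hemin and IPC+IRI groups. The Control arrays read 0.67, -0.03, 0.54 and 0.35 and the IRI arrays 0.19, -0.13, 0.03 and -0.24, with overlap between these groups. IRI+Hemin read -0.27, -0.24, -0.53 and -0.29, Hemin -0.78, -0.59, -0.89 and -0.60 and IPC+IRI -0.54, -1.02, -0.76 and -0.82. All Hemin and IPC+IRI arrays lay below all Control and IRI arrays. Trp53 was 2.25-fold lower in IPC+IRI vs Control (-1.17 ± 0.15, adjusted p = 5.51e-06) and 2.14-fold lower in Hemin vs Control (-1.10 ± 0.15, adjusted p = 8.82e-05), and it was lower in IPC+IRI vs IRI (-0.75 ± 0.15, adjusted p = 0.000628). Without normalization between arrays the last of these gave adjusted p = 0.162 and Hemin vs Control gave -0.53 (adjusted p = 0.0687), in a fit where the median of all genes in that comparison stood at 0.62. Relative to that median the Trp53 difference was -1.15. In IPC+IRI vs IRI the probes of Trp53 were also far apart (-1.85 ± 0.28, adjusted p = 6.04e-05, and -0.34 ± 0.16, adjusted p = 0.0792), and the brightest probe alone gave no call (adjusted p = 0.0803).

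IRI vs Control showed a smaller fall of Trp53, by 0.42 ± 0.15 (adjusted p = 0.0244), and the probes gave different accounts of it. The probe printed in 10 copies (chr11:69403134-69403193, build mm9) gave 0.22 ± 0.28 (adjusted p = 0.532), and the single-copy probe 9175 bases upstream (chr11:69393959-69394017) gave -0.69 ± 0.16 (adjusted p = 0.00135). Normexp background correction also ended this call (adjusted p = 0.125), as did no normalization (0.386), the mean of log2 values over the probes (0.258) and a fit of only these 8 arrays (0.0707). Leaving out Control replicate 1 or 3 or IRI replicate 2 or 4 did the same, with adjusted p between 0.0585 and 0.0902. In Hemin vs Control both probes fell, by 2.00 ± 0.28 and by 0.88 ± 0.16. With IRI+Hemin vs Hemin, Trp53 was higher by 0.38 ± 0.15 (adjusted p = 0.0419), a call that 5 of the 8 arrays compared each ended when left out (adjusted p between 0.0717 and 0.115). It was also lost with normexp background correction (0.0562), no normalization (0.369), the brightest probe (0.14), the deposited log2 matrix (0.0769) and no filter on dim genes (0.0643).

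Mdm2, the feedback inhibitor that p53 itself induces, rose with each form of IRI. Its log2 expression was -0.04, -0.14, 0.15 and -0.11 in Control, -0.04, 0.01, 0.05 and 0.15 in Hemin, 1.11, 1.41, 1.33 and 1.29 in IRI, 0.77, 1.03, 0.98 and 0.61 in IRI+Hemin and 1.25, 1.16, 1.24 and 1.09 in IPC+IRI. The IRI+Hemin arrays formed an intermediate group that overlapped neither IRI nor Hemin. Mdm2 rose 2.50-fold in IRI vs Control (1.32 ± 0.11, adjusted p = 4.21e-08), 2.33-fold in IPC+IRI vs Control (1.22 ± 0.11, adjusted p = 1.19e-07) and 1.75-fold in IRI+Hemin vs Hemin (0.81 ± 0.11, adjusted p = 1.51e-05).

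Mdm2 was 1.35-fold lower in IRI+Hemin than in IRI (-0.44 ± 0.11, adjusted p = 0.00296), a call that was lost with normexp background correction (adjusted p = 0.102), with the deposited log2 matrix (adjusted p = 0.149) and without normalization (adjusted p = 0.834). Both Mdm2 probes were lower in this comparison (-0.66 ± 0.18 and -0.39 ± 0.11). IPC+IRI vs IRI left Mdm2 at -0.10 (95% interval -0.32 to 0.12, adjusted p = 0.453), where the probes differed (-0.71 ± 0.18, adjusted p = 0.00425, and -0.00 ± 0.11, adjusted p = 0.983).

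The pro-apoptotic members of the BCL2 family did not move together. Bbc3 encodes PUMA and Pmaip1 encodes NOXA, small proteins that neutralise the survival factors of the family, and Bax encodes the protein that opens the outer mitochondrial membrane. Bbc3 read -0.25, -0.01, -1.02 and 0.04 in Control, 0.01, -0.13, -0.16 and 0.17 in Hemin, 1.51, 1.85, 1.60 and 1.57 in IRI, 0.83, 0.33, 0.71 and 1.00 in IRI+Hemin and 1.76, 0.94, 1.25 and 0.84 in IPC+IRI. All 12 arrays after ischemia exceeded the 8 others. Bbc3 rose 3.85-fold in IRI vs Control (1.94 ± 0.22, adjusted p = 2.24e-06), 2.85-fold in IPC+IRI vs Control (1.51 ± 0.22, adjusted p = 2.55e-05) and 1.67-fold in IRI+Hemin vs Hemin (0.74 ± 0.22, adjusted p = 0.0121), the last of which was lost without normalization (0.66, adjusted p = 0.0681). It was 1.89-fold lower in IRI+Hemin than in IRI (-0.92 ± 0.22, adjusted p = 0.00307), without overlap of arrays, but normexp background correction (-0.52, adjusted p = 0.0538) and the lack of normalization (-0.55, adjusted p = 0.0989) each ended this call.

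Bax ran against Bbc3, with its lowest values in IRI. The Control arrays read 0.32, 1.33, 0.29 and 0.46 and the IRI arrays -0.23, 0.07, 0.14 and 0.20, while Hemin read 1.57, 1.70, 1.63 and 1.77, IRI+Hemin 1.37, 1.29, 1.21 and 1.60 and IPC+IRI 1.41, 1.21, 1.47 and 1.20. Control replicate 2 stood at the level of the treated groups, and the other Control arrays lay between these and IRI. Bax fell by 0.56 ± 0.18 in IRI vs Control (adjusted p = 0.0153), which was no longer called with normexp background correction (adjusted p = 0.0531), without normalization (adjusted p = 0.136), in a fit of only these 8 arrays (adjusted p = 0.0753) or without IRI replicate 1 (adjusted p = 0.0546). Without Control replicate 2 the fall was smaller (-0.31, adjusted p = 0.0394). In IPC+IRI vs Control it rose by 0.72 ± 0.18 (adjusted p = 0.00253). It rose 2.50-fold in IRI+Hemin vs IRI (1.32 ± 0.18, adjusted p = 3.09e-05), 2.42-fold in IPC+IRI vs IRI (1.28 ± 0.18, adjusted p = 4.37e-05) and 2.09-fold in Hemin vs Control (1.07 ± 0.18, adjusted p = 0.00038), and these calls were kept under every alternative tried. Hemin, IRI+Hemin and IPC+IRI were scanned on other days than Control and IRI, and no alternative alters this. Scan day and treatment cannot be told apart for these calls. The 10 copies of its single probe, whose 60 bases span 156 bases of mm9 (chr7:52721469-52721624, minus strand), varied by 3.34% within an array.

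Pmaip1 was the least reproducible member. Its arrays ranged from -0.09 to 0.82 in Control, 0.70 to 1.96 in IRI, 0.68 to 2.27 in IPC+IRI, 0.59 to 1.40 in IRI+Hemin and 0.11 to 0.81 in Hemin, so that every group overlapped with its neighbours. It rose in IRI vs Control (0.84 ± 0.32, adjusted p = 0.0353) and in IPC+IRI vs Control (0.98 ± 0.32, adjusted p = 0.0145). The first call was lost without Control replicate 1 or 4 or IRI replicate 2, 3 or 4 (adjusted p between 0.0573 and 0.122) and with the replicate block (adjusted p = 0.0551), normexp background correction (0.16), the deposited log2 matrix (0.0785) or no filter on dim genes (0.0524), and the other was lost without Control replicate 1 (adjusted p = 0.059) or IPC+IRI replicate 1 (adjusted p = 0.0597).

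Both GADD45 genes, which encode small stress sensors that activate MAP kinase signalling and take part in DNA repair, rose after ischemia, and they differed in the treated groups. Gadd45a read 2.17, 2.38, 2.00 and 2.45 in Control, 2.90, 2.54, 2.13 and 2.62 in Hemin, 4.19, 5.56, 4.95 and 4.61 in IRI, 3.98, 3.22, 3.48 and 4.30 in IRI+Hemin and 4.22, 4.31, 3.98 and 3.83 in IPC+IRI. IRI had the highest mean, although its lowest array fell within the range of both treated groups. Gadd45a rose 5.97-fold in IRI vs Control (2.58 ± 0.26, adjusted p = 6.13e-07), 3.57-fold in IPC+IRI vs Control (1.84 ± 0.26, adjusted p = 1.86e-05) and 2.30-fold in IRI+Hemin vs Hemin (1.20 ± 0.26, adjusted p = 0.00139). It was 2.11-fold lower in IRI+Hemin than in IRI (-1.08 ± 0.26, adjusted p = 0.00311). In IPC+IRI vs IRI it was lower by 0.74 ± 0.26 (adjusted p = 0.0292), which rested on IRI replicate 2: without this array the difference was -0.50 (adjusted p = 0.113), and without IRI replicate 3 or IPC+IRI replicate 3 or 4 the adjusted p was 0.0659, 0.0625 and 0.076. Normexp background correction (adjusted p = 0.0868), no normalization (0.234), the deposited log2 matrix (0.0688) and a fit of only these 8 arrays (0.0559) also ended it.

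Gadd45b was highest in IPC+IRI. It read -1.23, -1.88, -2.26 and -1.87 in Control, -0.43, -1.12, -0.86 and -1.14 in Hemin, 0.50, 1.55, 0.74 and 1.03 in IRI, 1.86, 1.48, 1.40 and 1.89 in IRI+Hemin and 3.22, 2.00, 2.98 and 2.04 in IPC+IRI. All IPC+IRI arrays lay above all arrays of every other group, and all Hemin arrays above all Control arrays. Gadd45b rose 20.7-fold in IPC+IRI vs Control (4.37 ± 0.29, adjusted p = 7.88e-09, rank 19 of 18342 genes), 6.80-fold in IRI vs Control (2.76 ± 0.29, adjusted p = 9.06e-07), 5.83-fold in IRI+Hemin vs Hemin (2.54 ± 0.29, adjusted p = 4.07e-06) and 3.05-fold in IPC+IRI vs IRI (1.61 ± 0.29, adjusted p = 0.000343). Both of its probes, 523 bases apart, were higher in each of these comparisons. The smaller rise in Hemin vs Control (0.92 ± 0.29, adjusted p = 0.0199) was lost with normexp background correction (adjusted p = 0.225), without Control replicate 3 (0.0717) or without Hemin replicate 1 (0.0678).

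Sesn2 encodes sestrin 2, which restrains growth signalling through mTOR and supports antioxidant defence. Its log2 expression lay between 2.19 and 3.17 in Control, 2.70 and 2.95 in Hemin, 3.27 and 3.39 in IRI, 3.49 and 3.92 in IRI+Hemin and 3.49 and 4.03 in IPC+IRI. Every array after ischemia exceeded every array without it, and the IRI arrays lay within a range of 0.12. Sesn2 rose 1.67-fold in IRI vs Control (0.74 ± 0.17, adjusted p = 0.00143), 2.29-fold in IPC+IRI vs Control (1.19 ± 0.17, adjusted p = 1.78e-05) and 1.76-fold in IRI+Hemin vs Hemin (0.82 ± 0.17, adjusted p = 0.000925), the last of which was lost without normalization (0.74, adjusted p = 0.0509). Its probes, 884 bases apart, gave different answers in the first of these: the probe of NM_144907 (chr4:132048858-132048917, mm9) gave -0.22 ± 0.12 (adjusted p = 0.146) and that of the clone AK170547 (chr4:132047974-132048033) gave 0.97 ± 0.20 (adjusted p = 0.000728). They also differed in IPC+IRI vs Control, with 0.20 ± 0.12 (adjusted p = 0.167) and 1.43 ± 0.20 (adjusted p = 1.69e-05), and in IRI+Hemin vs Hemin both rose, by 0.88 ± 0.12 and 0.80 ± 0.20. The higher level in IPC+IRI vs IRI (0.45 ± 0.17, adjusted p = 0.0393) was lost with quantile normalization (adjusted p = 0.0995), the brightest probe (0.0768), no filter on dim genes (0.0554) and the replicate block (0.0621), and without any 1 of the 4 IRI arrays or IPC+IRI replicate 1, 2 or 4 (0.0561 to 0.113).

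**Figure D2:**
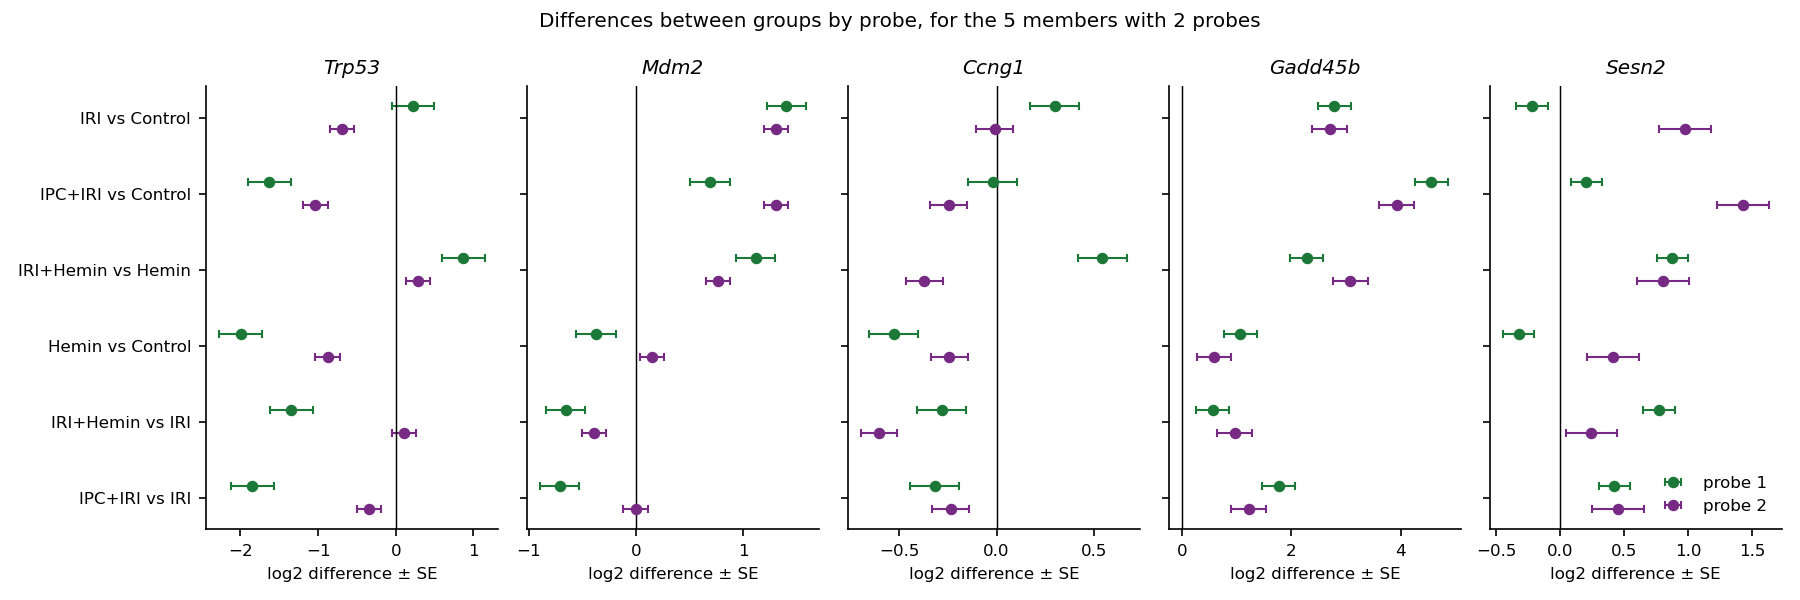
Log2 difference between groups ± SE (x axis, its own scale for each gene) in each comparison (y axis) for the 5 members with 2 probes, probe 1 in green and probe 2 in purple. The Gadd45b probes lie on the same side of 0 throughout, whereas in IRI vs Control those of Trp53 (0.22 and -0.69) and Sesn2 (-0.22 and 0.97) lie on opposite sides.

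The position of a probe along the transcript could not be annotated here. Ccng1 gave the clearest conflict between probes: in IRI+Hemin vs Hemin one rose by 0.54 ± 0.13 (adjusted p = 0.0022) and the other, 1986 bases away, fell by 0.37 ± 0.09 (adjusted p = 0.00411), while their mean did not pass the threshold (-0.18, adjusted p = 0.106). Whether Hemin altered the response to IRI also depended on the probe for Sesn2, with a difference of 1.10 ± 0.17 (adjusted p = 0.000889) for the probe of NM_144907 and -0.17 ± 0.29 (adjusted p = 0.783) for the other. In these tests every probe was fitted over at least 25940 probes.

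When the groups that received a protective treatment were set against IRI, the members divided. In IRI+Hemin vs IRI, 1 member was higher (Bax) and 4 were lower (Mdm2, Ccng1, Bbc3 and Gadd45a), against 26.1% higher and 18% lower among all 17831 genes tested. The median of the members was -0.44 and that of all genes 0.08. This split depended on the processing: normexp background correction and no normalization each gave 3 higher (Bax, Gadd45b and Sesn2) and 1 lower (Gadd45a), where normexp called 2599 of 17831 genes higher and 3182 lower and no normalization called 6468 higher and 597 lower. The deposited log2 matrix gave 3 members higher and 3 lower, with 4919 of 15372 genes higher and 1476 lower. Bax and Gadd45a were called in the same direction in all of these. In IPC+IRI vs IRI, 3 members were higher (Bax, Gadd45b and Sesn2) and 3 were lower (Trp53, Ccng1 and Gadd45a), against 26% and 17.7% of all genes, and the medians were -0.18 and 0.09. These comparisons share the IRI arrays. Of these calls in IPC+IRI vs IRI, those of Ccng1, Gadd45a and Sesn2 were each lost under several alternatives, whereas Bax and Gadd45b stayed called under all of those tried. Bax was higher in both comparisons. Gadd45b in IRI+Hemin vs IRI was 0.70 (95% interval 0.09 to 1.32, adjusted p = 0.0585) and was called higher under 9 of 32 alternatives, normexp (adjusted p = 0.0155) and the deposited log2 matrix (0.0151) among them, and Bbc3 in IPC+IRI vs IRI was -0.43 (-0.90 to 0.03, adjusted p = 0.122).

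**Figure D3:**
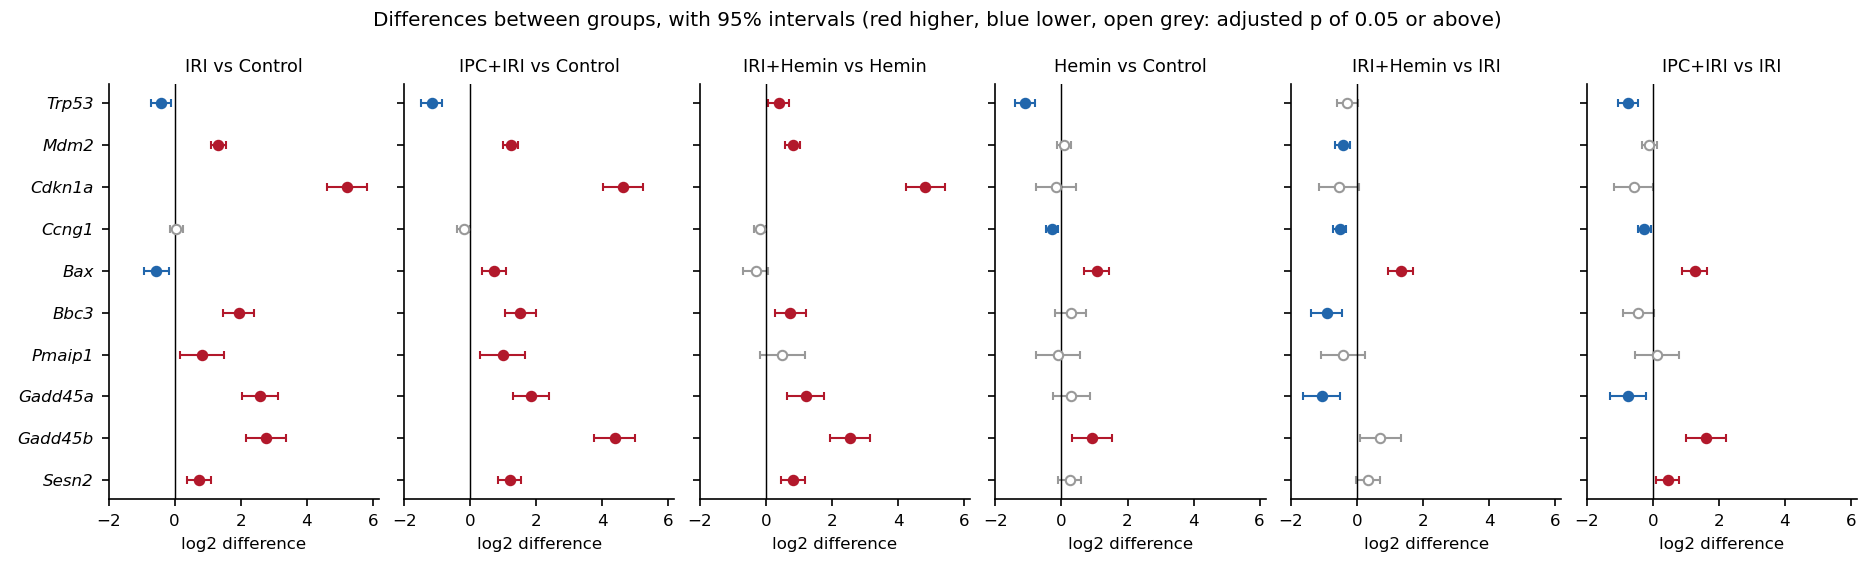
Log2 difference of each member (y axis) in 6 comparisons (panels, common x axis) with 95% intervals from the limma fit, red where higher, blue where lower and open grey where the adjusted p was 0.05 or above. Cdkn1a stands farthest from 0 in the 3 panels that compare IRI with no surgery (5.21, 4.63 and 4.83), and Bax is higher in all 3 panels on the right (1.07, 1.32 and 1.28).

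Whether Hemin altered the response to IRI was tested as the difference between IRI+Hemin vs Hemin and IRI vs Control. By this test 4 of the 10 members differed, 1 upward and 3 downward, against 5.82% upward and 1.95% downward of 19058 genes. Gadd45a rose less with Hemin than without it (2.30-fold against 5.97-fold, difference -1.38 ± 0.37, adjusted p = 0.0292), as did Bbc3 (1.67-fold against 3.85-fold, -1.20 ± 0.31, adjusted p = 0.0254) and Mdm2 (1.75-fold against 2.50-fold, -0.51 ± 0.15, adjusted p = 0.0425). Trp53 differed the other way (0.38 against -0.42, difference 0.80 ± 0.21, adjusted p = 0.0239). None of these 4 calls remained with normexp background correction. It gave -1.42 for Gadd45a (adjusted p = 0.104), 0.69 for Trp53 (0.115), -0.69 for Bbc3 (0.381) and -0.28 for Mdm2 (0.63). The count fell to 1 without IRI replicate 2. The Mdm2 call was lost under 22 of 32 alternatives, among them the replicate block (adjusted p = 0.0552), a fit of only the arrays compared (0.0603) and the deposited log2 matrix (0.25). For Cdkn1a the difference was -0.38 (95% interval -1.23 to 0.46, adjusted p = 0.632), and for Gadd45b it was -0.22 (-1.09 to 0.65, adjusted p = 0.809).

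**Figure D4:**
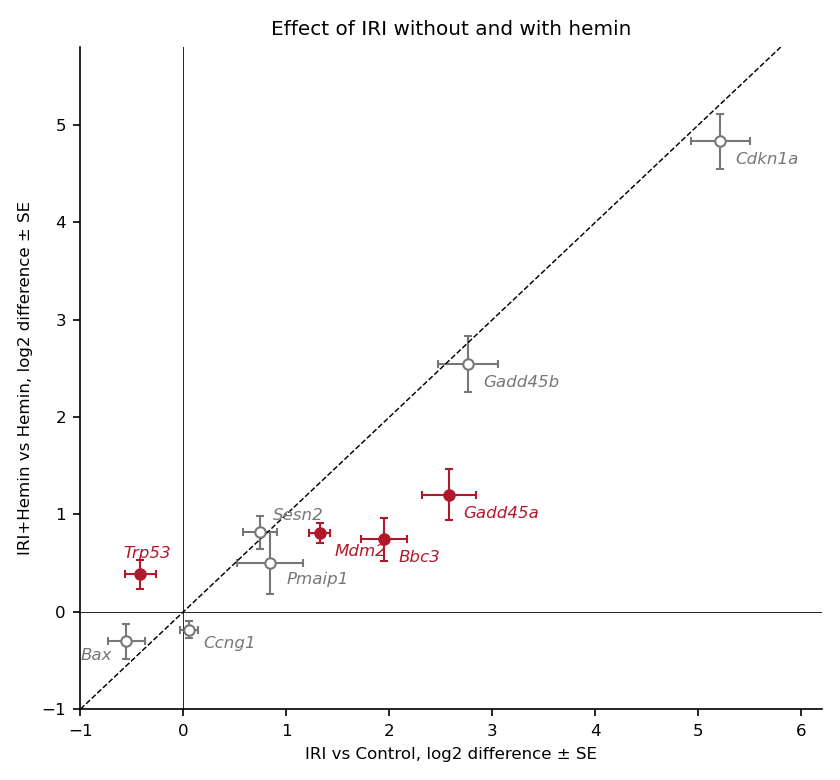
Log2 difference ± SE of each member in IRI vs Control (x axis) and in IRI+Hemin vs Hemin (y axis), which share no arrays, with the line of equal effect dashed and the 4 members whose effects differed at an adjusted p below 0.05 in filled red. Gadd45a (2.58 and 1.20), Bbc3 (1.94 and 0.74) and Mdm2 (1.32 and 0.81) lie below the line and Trp53 (-0.42 and 0.38) above it.

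A list of 43 other genes of the p53 pathway was counted in the same fit. In IRI vs Control 39 could be tested, 17 were higher and 8 lower, against 17% and 33.7% of all genes, and their median log2 difference was 0.15 (all genes -0.17). By role, 5 of 6 further arrest genes and 3 of 3 secreted proteins were higher. Of 11 apoptosis genes 6 were higher and 2 lower. Of 5 genes of DNA repair and nucleotide supply none was higher and 3 were lower. Of 9 upstream regulators 2 were higher and 2 lower, and of 5 genes of metabolism and growth control 1 was higher and 1 lower. Among genes well above background on all 8 arrays compared, large rises were those of Gdf15, a stress cytokine (4.32 ± 0.31, adjusted p = 1.33e-08), and Plk3, a stress-responsive polo-like kinase (4.00 ± 0.47, adjusted p = 2.85e-06). The largest falls among these genes were those of Atm, the kinase that signals DNA breaks to p53 (-1.20 ± 0.10, adjusted p = 8.2e-08), Polk, a translesion polymerase (-1.18 ± 0.17, adjusted p = 2.93e-05), and Rrm2b, the p53-inducible subunit of ribonucleotide reductase (-1.11 ± 0.31, adjusted p = 0.00669).

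In IRI+Hemin vs Hemin 12 of 39 were higher and 14 lower (all genes 16.4% and 27.8%), with Gdf15 (3.77 ± 0.31) and Plk3 (3.69 ± 0.47) rising most and Rrm2b (-1.62 ± 0.31), the checkpoint kinase gene Chek2 (-1.35 ± 0.22) and Atm (-0.99 ± 0.10) falling most. IPC+IRI vs Control had 17 of 41 higher and 9 lower (all genes 23.1% and 32.6%), with Plk3 (3.60 ± 0.47) and Gdf15 (3.15 ± 0.31) among the genes that rose and Chek2 (-1.38 ± 0.22), Atm (-0.64 ± 0.10) and Polk (-0.58 ± 0.17) among those that fell. In Hemin vs Control 7 of 39 were higher and 4 lower, no larger a share than among all genes (18.4% and 17.5%). Among genes well above background on all 8 arrays these were led by Sesn3, a sestrin (0.76 ± 0.15), Usp7, a deubiquitinase of Mdm2 and p53 (0.57 ± 0.13), and Zmat3 (0.47 ± 0.10) upward and Thbs1 (-1.24 ± 0.29), Siah1a (-0.66 ± 0.18) and Ei24 (-0.32 ± 0.11) downward.

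Against IRI, 3 of 3 secreted proteins of the list were lower in IPC+IRI and 2 of 3 in IRI+Hemin. In IPC+IRI vs IRI 11 of 41 genes were higher and 9 lower, shares near those of all genes (26% and 17.7%), and Thbs1, which encodes the antiangiogenic matrix protein thrombospondin 1 (-2.52 ± 0.29), and Gdf15 (-1.16 ± 0.31) were among the genes that fell, while Rrm2b (1.10 ± 0.31), Trp53inp1 (0.81 ± 0.20) and Sesn1 (0.77 ± 0.14) rose most among genes well above background on all 8 arrays. In IRI+Hemin vs IRI 7 of 39 were higher and 8 lower, against 26.1% and 18% of all genes. Among genes well above background on all 8 arrays, the called ones included Thbs1 (-2.07 ± 0.29), Siah1a (-1.27 ± 0.18) and Apaf1, the core of the apoptosome (-1.22 ± 0.31), which fell, and Polk (0.84 ± 0.17), Usp7 (0.78 ± 0.13) and Atm (0.50 ± 0.10), which rose, while Gdf15 was -0.66 (adjusted p = 0.0901). The limma test of whether Hemin altered the response to IRI called 0 of the 39 genes after adjustment, and 8 had an unadjusted p below 0.05.

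**Figure D5:**
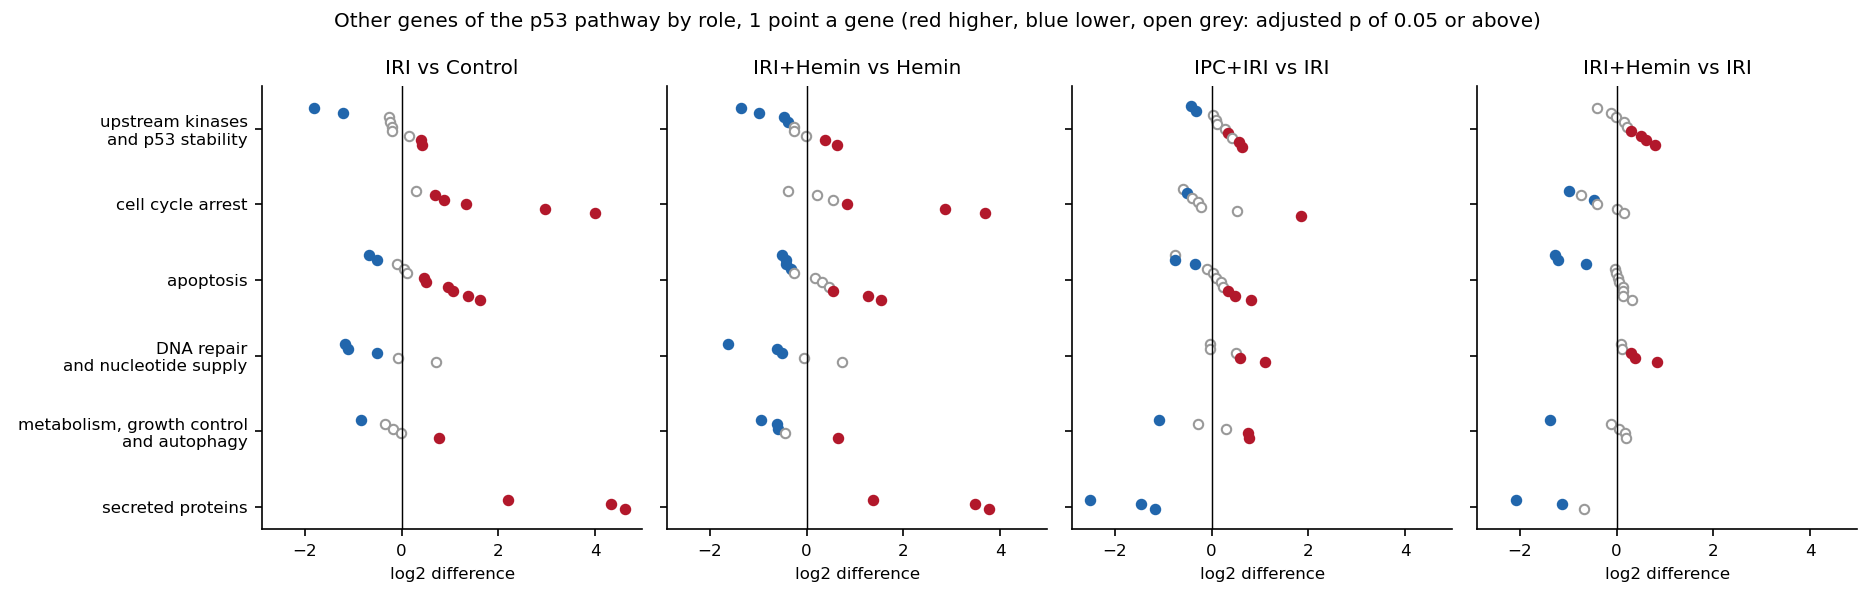
Log2 difference (common x axis) of the other p53 pathway genes, 1 point a gene, by role (y axis) in 4 comparisons, red where higher, blue where lower and open grey where the adjusted p was 0.05 or above. The 3 secreted proteins lie far right after IRI (2.19 for Thbs1 and 4.32 for Gdf15 in IRI vs Control) and left of 0 in IPC+IRI vs IRI (-2.52 and -1.16 for these genes), and the called genes of DNA repair and nucleotide supply lie left of 0 in the first and second panels and right of 0 in the others.

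Of 22 cell type markers tested in IRI vs Control 6 were higher and 5 lower (all genes 17% and 33.7%), led upward by Lcn2, a marker of tubular injury (5.06 ± 0.43), and by the leukocyte genes S100a9 (3.68 ± 0.53) and Cd68 (2.23 ± 0.32). The 5 endothelial markers were mixed, with Cdh5 higher (1.39 ± 0.28), Tek (-0.97 ± 0.24) and Kdr (-0.44 ± 0.17) lower, and Pecam1 (0.63, adjusted p = 0.135) and Emcn (0.09, adjusted p = 0.769) not called. In IRI+Hemin vs IRI 3 of 23 were higher and 5 lower (all genes 26.1% and 18%), the latter including Lcn2 (-1.32 ± 0.43) and Havcr1 (-0.92 ± 0.33). Of 23 tested in IPC+IRI vs IRI, 2 were higher and 7 lower (all genes 26% and 17.7%). Lcn2 was lower (-2.06 ± 0.43) while Havcr1, the other marker of tubular injury, was 0.25 (adjusted p = 0.551). The endothelial genes Cdh5 (-1.54 ± 0.28), Pecam1 (-1.16 ± 0.34) and Tek (-0.63 ± 0.24) were lower, and of the macrophage genes Emr1 was higher (1.67 ± 0.44) and Cd68 lower (-0.82 ± 0.32). The part of these changes in the members' values was not tested.

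Among 17224 other genes well above background on at least 12 of the 20 arrays, those whose log2 expression followed Cdkn1a most closely were Nrg1 (the clone AK031289, Pearson r = 0.988), Srxn1 (0.984) and Klf6 (0.983). The closest to Trp53 were Chd4 (0.962), Hsf1 (0.959) and Zfhx2as (0.956). These correlations run over 20 arrays that fall into 5 groups and share slides, and they carry no test.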

How the data were processed

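Total RNA of 20 kidney samples, 4 in each of 5 groups, was hybridised 1 array per sample with Cy3. The authors scanned the arrays and extracted them with Agilent Feature Extraction 9.5.3.1. The deposited scanner files hold spot intensity, background-subtracted and detrended within the array, with no step between arrays, annotated on mm9. The deposited matrix holds log2 values, and 100% of 549531 values of single-spot probes lay within 0.001 of log2 of the processed signal, with 18.1% of its values blank.

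Of 43379 non-control spots, those marked non-uniform or as population outliers were removed and saturated ones kept. Spots of a probe were averaged, divided by the 75th percentile of the array, averaged over the probes of a gene and log2 transformed. Groups were compared with limma 3.58.1 in R 4.3.3 (lmFit and eBayes) on all 20 arrays with 5 group means (15 residual degrees of freedom) and Benjamini-Hochberg adjustment over all genes tested. A gene was tested if at most 1 array compared had no value and at least 3 of 4 arrays of either group were well above background. The code was tested on simulated data. No source says that the arrays of a group came from separate animals, so p-values measure the spread between these samples. The number of arrays limits the precision.

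The members and gene lists were chosen with earlier results of these data known. All 10 members are named. Pathway and marker genes were named if they were called, were well above background in all 8 arrays compared, and ranked among the first 3 by size in their direction (Gdf15 in IRI+Hemin vs IRI is given beside its other values). Also named are the 3 genes closest in pattern to Trp53 and to Cdkn1a. Alternatives changed the background correction, normalization, probe summary, source, filter, fold limit, arrays fitted, replicate block and each array left out. Fits of single probes were added after seeing the data. Some genes that this rule selects are not reported here.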

Additional observations from a re-analysis of the deposited data

Results flagged for a closer look

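Of 50 groups of 4 arrays (10 members in 5 groups), 4 held an array whose distance from the nearest other array was unusually large for the range of the group, and chance marks about 1 in 20 groups. For Cdkn1a, Hemin replicate 4 stood at -1.92 while the other Hemin arrays lay between -2.09 and -2.07. For Ccng1, IRI+Hemin replicate 3 stood at 2.17 against 2.33 to 2.34 in the others, and IPC+IRI replicate 4 stood at 2.70 against 2.52 to 2.53. For Bax, Control replicate 2 stood at 1.33 against 0.29 to 0.46 in the other Control arrays.

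For 4 members the effect of IRI differed between mice with and without Hemin, by limma's test of the difference. The log2 difference of effects was 0.80 for Trp53 (adjusted p = 0.0239), -0.51 for Mdm2 (adjusted p = 0.0425), -1.20 for Bbc3 (adjusted p = 0.0254) and -1.38 for Gadd45a (adjusted p = 0.0292). None of these 4 was called under every alternative, all 4 were lost with normexp background correction, and that of Mdm2 was lost under 22 of 32.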

How the results depend on the processing

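Each of 44 calls on members was refitted under 32 alternatives, and of 1408 values 1266 kept their direction and their side of the threshold, 140 fell short of it and 2 reversed. The reversed ones were Ccng1 without normalization between arrays, in IPC+IRI vs IRI (0.063) and in Hemin vs Control (0.27). With each probe fitted alone, a choice made after seeing the data, the first probe reversed Trp53 (0.22) and Sesn2 (-0.22) in IRI vs Control, Sesn2 in Hemin vs Control (-0.33) and Ccng1 in IRI+Hemin vs Hemin (0.54). Normexp background correction called 2 members in Hemin vs Control and 0 in the test of whether Hemin altered the response to IRI. Of all genes it called 1947 higher and 1700 lower of 18572 in Hemin vs Control and 117 and 29 of 19058 in that test. No normalization called 3 members in IPC+IRI vs IRI (all genes 5815 higher and 584 lower of 17663) and 4 in IRI+Hemin vs Hemin (1321 and 3531 of 18628). It called 1 in that test (320 and 82 of 19058), where the deposited log2 matrix called 2 (897 and 110 of 14959). The mean of log2 values over probes called 8 in IRI+Hemin vs IRI (all genes 4282 higher and 3076 lower of 17831). A limit of 2-fold left 5 members in IRI vs Control, 3 in IRI+Hemin vs Hemin and 2 each in Hemin vs Control, in IPC+IRI vs IRI, in IRI+Hemin vs IRI and in the test of the Hemin effect. Of all genes it left 1057 higher and 2526 lower of 17711 in IRI vs Control. In IRI+Hemin vs Hemin it left 1077 and 1582 of 18628, and in Hemin vs Control 405 and 1110 of 18572. In IPC+IRI vs IRI it left 1265 and 777 of 17663, and in IRI+Hemin vs IRI 1326 and 896 of 17831. In the test of the Hemin effect it left 815 and 161 of 19058. Leaving out 1 array gave 3 to 7 calls in IPC+IRI vs IRI (3 without IRI replicate 2 or 3), 2 to 5 in Hemin vs Control (2 without Control replicate 3) and 1 to 4 in the test of the Hemin effect (1 without IRI replicate 2, and 2 without Control replicate 1, IRI replicate 3, IRI+Hemin replicate 2 or Hemin replicate 1 or 3). Without IRI replicate 2 the fit called 4417 of 17596 genes higher and 2770 lower in IPC+IRI vs IRI. In the test of the Hemin effect it then called 996 of 19031 higher and 250 lower. Without Control replicate 3 it called 2392 of 18403 genes higher and 2587 lower in Hemin vs Control. The causes were not tested. Without normalization the median of all genes stood at 0.62 in Hemin vs Control, 0.35 in IPC+IRI vs Control, 0.41 in IPC+IRI vs IRI and 0.45 in IRI+Hemin vs IRI. Over all genes, normexp called 1770 higher and 1365 lower in IRI vs Control, and no normalization called 8766 higher and 477 lower in Hemin vs Control.

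Arrays with the same replicate number did not deviate together (r from -0.379 to 0.21, and 7 of 40 pairs above 0.1), so the numbers were not taken to pair samples. The fit with the replicate block called 8 members in IRI vs Control (all genes 2882 higher and 5764 lower of 17711). It called 9 in IPC+IRI vs Control (4093 and 5821 of 18342) and 4 in IPC+IRI vs IRI (4404 and 2950 of 17663). In IRI+Hemin vs IRI it called 5 (4434 and 3022 of 17831) and in Hemin vs Control 4 (3158 and 3094 of 18572). In IRI+Hemin vs Hemin it called 7 (2920 and 4885 of 18628) and in the test of the Hemin effect 3 (993 and 280 of 19058). In 18 of 80 comparisons of an array with another group the array correlated best with its own number. Slide as a random block was not run, since every group lay on 1 slide of its own.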
